A study of Homo sapiens with 4 samples.

Results

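The S100 calcium-binding proteins are described here through 10 genes, S100A2, S100A3, S100A4, S100A5, S100A6, S100A10, S100A11, S100A13, S100A14 and S100A16, out of 21 S100 genes in a table of 60664 genes. They were chosen by gene name, with their counts and levels in the same 4 libraries already known, so their own values and differences are given as a description and without a test. No threshold was stated for the choice: S100A14, which was included, had 14, 11, 15 and 29 estimated counts per library, and S100A1, which was not, had 23.89, 20, 34.66 and 30. RNA-seq had been done on Hs578T, an established human triple-negative breast cancer line. Libraries came from 2 groups, the empty control (FLAG in the deposited table) and overexpression of TFCP2L1, one of the CP2/grainyhead transcription factors, with 2 libraries each, named empty 1 and 2 and overexpression 1 and 2. The labels give neither the vector and its promoter nor whether a group was 1 clone or a pool, nor whether both libraries of a group were grown separately, so their spread, and any p-value made from it, may be technical. They name no batch, and a batch that followed the groups cannot be told apart from the overexpression.

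S100 proteins are small, mostly dimeric proteins with a pair of EF-hand loops that bind calcium. Binding opens a hydrophobic face that then docks onto target proteins such as annexins, cytoskeletal motors and enzymes, and several family members also leave the cell and act on surface receptors. Most of the human genes sit side by side in the epidermal differentiation region of chromosome 1, and S100A4 in particular is widely used as a marker of motile and mesenchymal cells, while S100A2 is known from basal epithelial cells.

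Estimated counts summed to 23304022 for empty 1, 18960674 for empty 2, 23755664 for overexpression 1 and 26355502 for overexpression 2. TFCP2L1 itself had 12 and 19 counts without and 4623 and 5069 with overexpression, in the direction of the labels. All 8 markers of the Hs578T line were detected, with summed levels of 8198 to 8842 TPM, the authors' level per transcript length and depth. Single markers moved in both directions under this sum, of which VIM was the largest part (mean 3783 empty against 4528 TPM overexpression). CDH2 and COL6A1 were also higher with overexpression, and AXL overlapped between the groups. CD44 (672 against 483 TPM), FN1, SPARC and ZEB1 (15.8 against 10.1 TPM) were lower. Of other cell types that could be present, 6 leukocyte markers summed to 0.71 to 2.01 TPM, with MS4A1 among those at 0. The 5 endothelial markers summed to 13.2 and 9.93 TPM (empty) against 4.61 and 3.86 TPM (overexpression), most of it PECAM1. The 8 luminal and epithelial markers summed to 394 and 388 TPM against 268 and 273 TPM, most of it KRT18 (mean 366 against 229 TPM). PGR was at 0. ERBB2 (mean 18.4 against 32.5 TPM) and GATA3 (5.11 against 6.42 TPM) were higher with overexpression. CDH1, EPCAM, ESR1 and FOXA1 were near the floor, with group means of at most 0.795 TPM. Of these, CDH1 (0.15 and 0.19 against 1.03 and 0.07 TPM) and EPCAM (0.35 and 0.16 against 0.54 and 0.15 TPM) overlapped between the groups. No direction is read from these low markers. Both sums moved with the groups, and their part in the S100 results was not tested. Differences were fitted with edgeR's quasi-likelihood test over 16544 genes with enough counts, adjusted by the Benjamini-Hochberg method and called at an adjusted p under 0.05. An exact permutation test of 2 libraries against 2 cannot go below a two-sided p of 0.333, so none was made.

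All 10 genes lie on the minus strand of chromosome 1 (GENCODE release 29, GRCh38) and are annotated as protein-coding. S100A10 and S100A11 stand apart, 38.1 kb from each other and 1487 kb from the rest. S100A6, S100A5, S100A4 and S100A3 fill 15.5 kb, S100A2 follows 11.7 kb beyond S100A3, and S100A16, S100A14 and S100A13 close the row, which spans 96.8 kb from S100A6 to S100A13. The annotated spans are S100A6 (ENSG00000197956) chr1:153534599-153536244, S100A5 (ENSG00000196420) chr1:153537147-153541765, S100A4 (ENSG00000196154) chr1:153543613-153550136, S100A3 (ENSG00000188015) chr1:153547329-153549372 and S100A2 (ENSG00000196754) chr1:153561108-153567890. Those of the others are S100A10 (ENSG00000197747) chr1:151982915-151994390, S100A11 (ENSG00000163191) chr1:152032506-152047907, S100A16 (ENSG00000188643) chr1:153606886-153613145, S100A14 (ENSG00000189334) chr1:153614255-153616986 and S100A13 (ENSG00000189171) chr1:153618787-153631360. The 5 genes from S100A6 to S100A2 hold the largest differences among the 10, and one promoter window is shown for each because these neighbours differ in direction as well as in size. For S100A2 and S100A5, which have 2 windows each, the one that holds the marked motif is shown. Other motifs in a window are left unmarked. Windows run from 250 bases before to 50 after a RefSeq transcript start (GRCh38.p14, minus strand, written 5′ to 3′), and capitals mark the motif named beside each sequence.
S100A6, chr1:153535942-153536241, GGGCGG in capitals: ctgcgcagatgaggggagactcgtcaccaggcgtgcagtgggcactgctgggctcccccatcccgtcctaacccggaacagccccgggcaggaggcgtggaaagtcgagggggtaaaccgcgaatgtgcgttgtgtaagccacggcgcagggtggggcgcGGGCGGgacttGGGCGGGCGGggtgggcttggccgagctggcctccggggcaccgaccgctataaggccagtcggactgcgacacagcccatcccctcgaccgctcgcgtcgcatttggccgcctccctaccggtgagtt
S100A5, chr1:153540885-153541184, TGANTCA in capitals: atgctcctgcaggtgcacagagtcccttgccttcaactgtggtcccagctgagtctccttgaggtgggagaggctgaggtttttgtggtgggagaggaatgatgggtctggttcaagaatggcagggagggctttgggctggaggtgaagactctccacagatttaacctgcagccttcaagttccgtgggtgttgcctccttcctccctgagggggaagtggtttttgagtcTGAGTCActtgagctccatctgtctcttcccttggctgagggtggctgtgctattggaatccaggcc
S100A4, chr1:153545757-153546056, TATAAA in capitals: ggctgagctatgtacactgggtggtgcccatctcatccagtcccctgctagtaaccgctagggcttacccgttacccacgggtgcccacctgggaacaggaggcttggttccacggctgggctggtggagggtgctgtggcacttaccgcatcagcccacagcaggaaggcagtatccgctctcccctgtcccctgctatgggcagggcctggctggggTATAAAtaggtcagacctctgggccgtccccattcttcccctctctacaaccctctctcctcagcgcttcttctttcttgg
S100A3, chr1:153549209-153549508, TGANTCA in capitals: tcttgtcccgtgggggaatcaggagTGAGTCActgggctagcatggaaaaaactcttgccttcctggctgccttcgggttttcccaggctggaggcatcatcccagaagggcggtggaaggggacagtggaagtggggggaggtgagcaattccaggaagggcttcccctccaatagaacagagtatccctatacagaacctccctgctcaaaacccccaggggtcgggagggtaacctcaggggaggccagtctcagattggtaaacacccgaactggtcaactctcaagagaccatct
S100A2, chr1:153565795-153566094, TGANTCA in capitals: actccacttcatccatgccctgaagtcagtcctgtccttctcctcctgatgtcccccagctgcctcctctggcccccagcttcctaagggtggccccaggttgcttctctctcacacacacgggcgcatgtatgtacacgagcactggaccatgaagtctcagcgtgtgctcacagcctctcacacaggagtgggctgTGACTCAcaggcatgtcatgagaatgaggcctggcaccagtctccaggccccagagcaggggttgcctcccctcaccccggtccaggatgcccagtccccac
In the S100A6 window GGGCGG matched 3 times, overlaps included, first at position -90 from the start. TGANTCA matched once each at -17 in the S100A5 window, at -225 in that of S100A3 and at -52 in that of S100A2, and TATAAA matched at -31 in that of S100A4. GGGCGG is the core that SP1 type factors read, TGANTCA that of AP-1 type factors, and TATAAA is a core promoter element. Both strands were searched.

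RefSeq gives the 10 genes 15 such windows: S100A2, S100A5 and S100A16 have 2 each, S100A13 has 3 and the other genes 1. TGANTCA was found in 3 of the 15, those of S100A2, S100A3 and S100A5, and in 7.71% of all 35116 windows of the same length. The 3 genes with this match went in both directions, S100A2 higher and the others lower with overexpression. GGGCGG was found in 6 of 15 (S100A3, S100A6, S100A10, S100A11, S100A13 and S100A16) and in 44.95% of all windows. TATAAA was found in 2 of 15 (S100A4 and S100A13) and in 11.5% of all. A paired site of the kind known for CP2 factors (CCAG, any 6 bases, CCAG) was found in 0 of 15 and in 4.04% of all windows. A match or its lack describes only the letters of these windows.

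In empty cells S100A6 and S100A4 led the family, and with overexpression both were lower and S100A2 took the first place. Of the 10 genes, 8 passed the threshold of the fit, 1 higher and 7 lower, where 47.5% of all tested genes passed it, 23.5% higher and 23.9% lower. Since the same contrast was known when the genes were chosen, nothing is read from that count. The median log2 fold change of the 10 was -0.33, and that of all tested genes was -0.00. S100A11 and S100A14 did not pass. By the authors' deposited table, 6 of the 10 had an adjusted p under 0.05, 1 higher and 5 lower. The share of all genes under 0.05 by the authors' values is not given here, so nothing is read from this count either. S100A13 and S100A16 were the genes that differed in call between the fit and the authors' values. The calls of these 2 genes also depended on settings and libraries. Both were lost at a threshold of 0.01. That of S100A13 was lost without empty 1, without empty 2, without overexpression 1, with no filter on low counts and in DESeq2, and that of S100A16 in the same cases other than DESeq2.

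**Figure D1:**
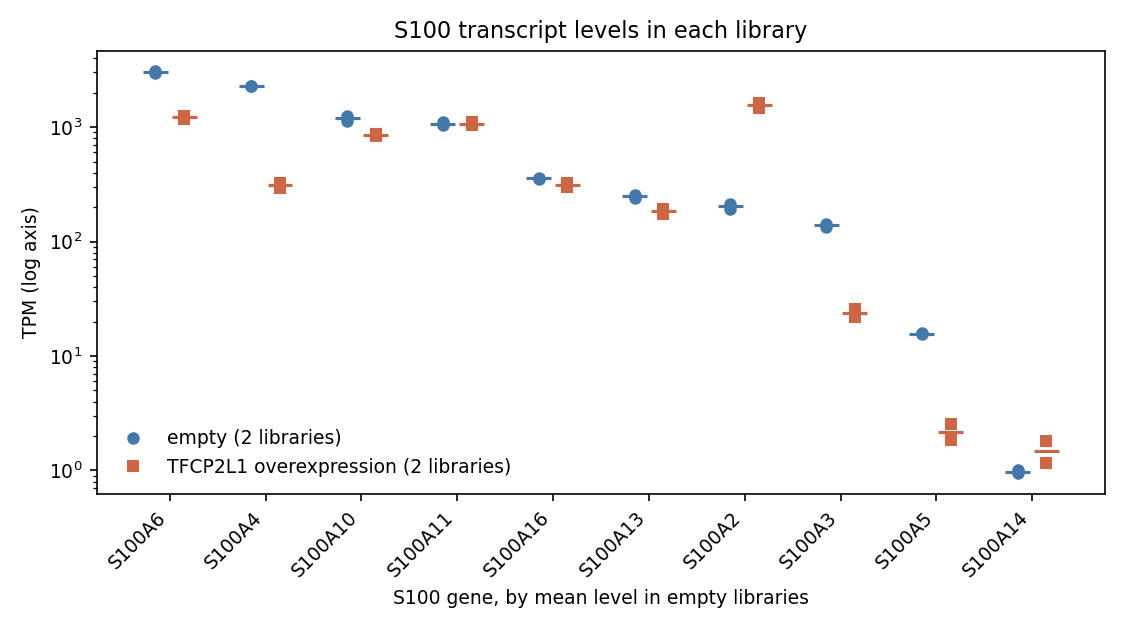
TPM of each of the 10 S100 genes in each library, on a log10 axis, with circles (empty) and squares (overexpression) for single libraries and short lines at the group means. S100A2 is the gene with the overexpressing libraries clearly above the empty ones (1463 and 1637 against 212 and 194 TPM), and S100A4, S100A3 and S100A5 are those with the widest gap the other way.

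S100A4, the metastasin that binds the heavy chain of non-muscle myosin and is tied to cell motility, had 2293.87 and 2272.39 TPM in the empty libraries against 296.08 and 326.44 TPM with overexpression. The groups lay far apart, with little spread inside either. In estimated counts these were 11327 and 9044 against 1512 and 1850, a share of the counts 7.18-fold lower with overexpression (95% exact binomial interval 6.93 to 7.45, counting error only). The fitted log2 fold change was -2.85 (SE 0.07). S100A4 went, among all genes, from the 76th and 77th highest TPM to the 472nd and 438th. As in every bulk result here, fewer cells with the transcript and less transcript per cell cannot be told apart.

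S100A3 lies inside the annotated span of S100A4, without sharing an exon base with it, and encodes a cysteine-rich protein known from the hair cuticle that binds zinc. Its level was 133.47 and 143.01 TPM in empty against 22.06 and 25.51 TPM in overexpressing libraries, 5.93-fold lower by counts (95% interval 5.31 to 6.63) with a log2 fold change of -2.57 (SE 0.11). S100A5, 1.85 kb from S100A4 on the other side and known in rodents from olfactory neurons, had 15.6 and 15.77 TPM against 1.83 and 2.54 TPM. Both genes were lower in every overexpressing library than in any empty one, though they started at levels far below that of S100A4. S100A5 rests on few counts, 118 and 99 against 15 and 22, and its ratio of 6.95-fold lower has a wide interval of 4.89 to 10.1. Its log2 fold change was -2.79 (SE 0.27).

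S100A6, or calcyclin, which binds the ubiquitin ligase adaptor CACYBP, was the most abundant member in empty cells. It had 3097.24 and 2961.46 TPM there and 1181.32 and 1259.98 TPM with overexpression. The groups did not overlap, and the gene stayed among the highest of all, at ranks 44 and 49 in empty against 139 and 134 in overexpressing libraries. Its counts were 2.39-fold lower (2.33 to 2.45) and its log2 fold change was -1.25 (SE 0.06), a smaller difference than those of its 3 neighbours. Of its 971 annotated exon bases, 23 overlap BX470102.1 on the opposite strand, and whether reads were counted by strand is not stated.

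S100A2, the epithelial family member that binds p53, was the one called gene that was higher. Its level was 211.9 and 193.51 TPM in empty against 1462.88 and 1637.48 TPM in overexpressing libraries. It moved from the 643rd and 708th to the 117th and 109th highest TPM among all genes. In CPM, estimated counts scaled to the library total, the group means were 86.8 ± 1.79 and 531 ± 29.5 (SD, n = 2), 6.11-fold higher by counts (5.91 to 6.33), with a log2 fold change of 2.61 (SE 0.06). On the TPM scale the ratio of the group means was larger, 7.65. S100A4 and S100A2 exchanged order: S100A4 had 10.8 and 11.7 times the TPM of S100A2 in the empty libraries, and S100A2 had 4.94 and 5.02 times that of S100A4 in the overexpressing ones.

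S100A10 and S100A11, at the far end of the row, both bind annexins. S100A10, the p11 subunit that holds annexin A2 in a complex and has lost the ability to bind calcium, had 1136.63 and 1239.98 TPM in empty against 835.72 and 869.19 TPM in overexpressing libraries. The groups did not overlap, and the counts were 1.33-fold lower (1.30 to 1.36; log2 fold change -0.42, SE 0.06). S100A11, a partner of annexin A1, had 1034.71 and 1113.17 TPM against 1040.2 and 1101.47 TPM. Here the overexpressing libraries fell between the empty ones, and the log2 fold change of 0.04 (SE 0.06) was within its error. It was slightly negative on a log2(TPM + 1) scale and without empty 1 or overexpression 2. The 8 S100A11 pseudogenes in the table were all listed at 0 counts.

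S100A16, S100A14 and S100A13 lie together beyond S100A2. S100A16, a broadly expressed member, had 353.47 and 362.54 TPM in empty against 300.39 and 326.26 TPM in overexpressing libraries, a log2 fold change of -0.18 (SE 0.06), which shrank to -0.08 without overexpression 1. S100A13, known for carrying FGF1 out of the cell, had 252.79 and 242.11 TPM against 173.38 and 192.95 TPM, a log2 fold change of -0.24 (SE 0.08). In both genes the groups did not overlap, but the differences were small beside those of S100A2 to S100A6. The groups also separated in S100A14, which did not pass the threshold. With 2 libraries against 2, and without the share of all genes that separate, nothing is read from separation alone for any of the S100 genes. S100A13 shares 536 of its 2216 annotated exon bases with AL162258.1 on the same strand and 235 with S100A1 on the other, so its counts depend on how shared reads were split. S100A14, an epithelial member, was near the floor with 1 and 0.94 TPM against 1.15 and 1.79 TPM. Its ratio of 1.48-fold higher had an interval of 0.889 to 2.53, so no difference was detectable at this depth. Its log2 fold change of 0.56 was 0.09 without overexpression 2 and 0.91 without overexpression 1.

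**Figure D2:**
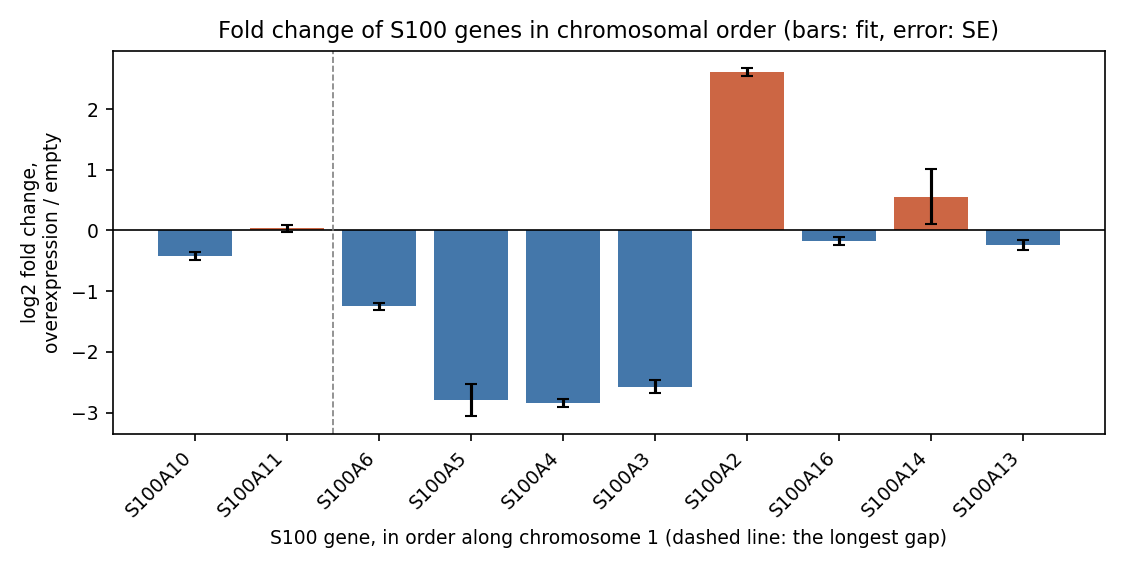
Log2 fold change (overexpression over empty) of the 10 S100 genes in their order along chromosome 1, with the fit's standard error as bars and a dashed line at the longest gap between neighbours. S100A6, S100A5, S100A4 and S100A3 lie at -1.25 to -2.85, their neighbour S100A2 at 2.61, and the 5 genes outside this stretch at -0.42 to 0.56.

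The order of the levels was read from TPM, which is per length. In the empty libraries it ran S100A6, S100A4, S100A10, S100A11, S100A16, S100A13, S100A2, S100A3, S100A5, S100A14. S100A10 and S100A11 were close there, at 1188 ± 73.1 and 1074 ± 55.5 TPM (SD, n = 2), a gap smaller than the sum of their SDs. In the overexpressing libraries it ran S100A2, S100A6, S100A11, S100A10, then S100A16 and S100A4, whose values of 300 and 326 TPM for S100A16 and 296 and 326 TPM for S100A4 overlapped, followed by S100A13, S100A3, S100A5 and S100A14. The last 3 kept their places in all 4 libraries.

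Added up, the 10 genes gave 8531 and 8545 TPM in the empty libraries against 5315 and 5744 TPM with overexpression. The summed level was 35.2% lower, 8538 ± 10.04 against 5529 ± 303 TPM (SD, n = 2), and went from 0.857% to 0.554% of all TPM. In CPM, which is not per length, the sum was 19.5% lower, 1964 ± 16.1 against 1580 ± 88.5. The makeup of the pool differed as well. S100A2 went from 2.37% ± 0.16 to 28.02% ± 0.70 of the summed TPM, S100A4 from 26.7% ± 0.21 to 5.63% ± 0.08, and S100A6 from 35.5% ± 1.17 to 22.1% ± 0.20. S100A11, with an almost equal level in both groups, went from 12.6% ± 0.63 to 19.4% ± 0.28 of a smaller pool, and S100A10 from 13.9% ± 0.84 to 15.4% ± 0.42.

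**Figure D3:**
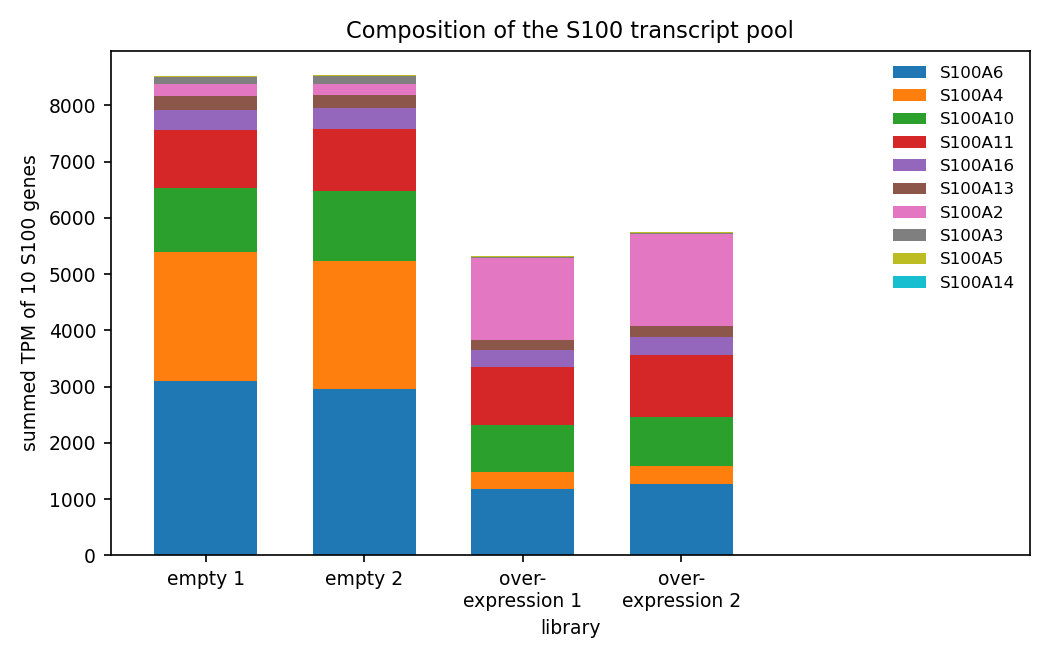
Summed TPM of the 10 S100 genes in each library, stacked by gene. The overexpressing bars are shorter (5315 and 5744 against 8531 and 8545 TPM), with a wide S100A2 band and a narrow S100A4 band where the empty bars show the reverse.

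A gene's estimated counts per TPM move with the transcript length used for it in that library, which differs between libraries when the mix of transcripts is estimated differently. The 10787 genes with at least 100 counts in every library were used, 8 of the 10 S100 genes among them. Their ratios were taken relative to each gene's mean over libraries, and each library was scaled by its median of these. Each gene's ratio was then set to 1 on the mean of the empty libraries. S100A2 had 0.970 and 1.03 in empty against 0.828 and 0.757 in overexpressing libraries. Its mean with overexpression was 20.7% lower, at the 1.59th percentile of these genes, and its fold was correspondingly larger in TPM than in CPM. S100A13 went the other way, 0.998 and 1.00 against 1.17 and 1.10, at the 95.1th percentile. The overexpression means of the other 6 genes were 0.964 to 1.03, and the 5th to 95th percentile range of that mean over all genes was 0.868 to 1.14. S100A1, which overlaps S100A13 and had too few counts for this set, had 11.5 and 11.5 counts per TPM in empty against 13.98 and 42.86 in overexpressing libraries. These S100A1 values were not scaled and also carry the depth of each library, and 42.86 rests on 0.7 TPM in overexpression 2. GENCODE gives 6 transcripts each for S100A2 and S100A13, and values per gene do not say which of them differed.

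**Figure D4:**
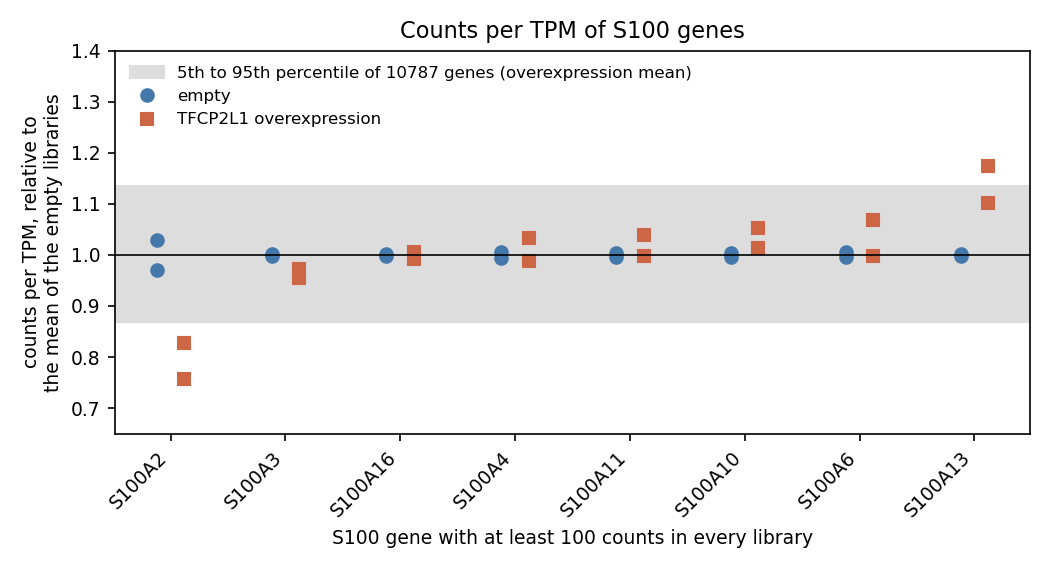
Estimated counts per TPM of 8 S100 genes in each library, scaled per library and relative to the mean of the empty libraries, with the 5th to 95th percentile of all genes shaded. S100A2 lies at 0.828 and 0.757 in the overexpressing libraries, S100A13 at 1.17 and 1.10, and the others near 1.

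The S100 genes outside the 10 were low or silent. S100A1, which overlaps S100A13 on the opposite strand and is known from heart muscle, had 23.89 and 20 against 34.66 and 30 estimated counts and did not pass the threshold (edgeR adjusted p = 0.485). S100B, known from glia and melanocytes, had 3 and 11 against 2 and 0 counts. S100Z had 3 and 1 against 0 and 0, S100P 1 and 1 against 0 and 1, and S100A9, a subunit of calprotectin, 0 and 1 against 0 and 0. The 6 others, S100A7, S100A7A, S100A7L2, S100A8, S100A12 and S100G, were listed at 0 in every library. Of the genes of the same region that encode S100-fused proteins or were listed as late cornified and differentiation genes, 7 and 35 were in the table. Of these, 3 and 29 had no count in any library, and 0 had enough counts to be tested.

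Among known binding partners and receptors of S100 proteins, a list of 38 genes in the table, 31 were tested and 25 (80.6%) passed the threshold of edgeR's adjusted p, 7 higher and 18 lower, against 47.5% of all genes. The median log2 fold change was -0.26. Without empty 1 the split was 4 higher and 17 lower. PLAT, the tissue plasminogen activator that S100A10 complexes bind, fell from 166 ± 13.9 to 44.8 ± 1.99 CPM (SD, n = 2; log2 fold change -1.89, edgeR adjusted p = 8.64e-11). PLAUR, the urokinase receptor, fell from 52.9 ± 2.32 to 25.2 ± 1.06 CPM (adjusted p = 1.21e-07 in edgeR). ANXA1, the S100A11 partner, fell from 712 ± 3.60 to 447 ± 8.65 CPM (edgeR adjusted p = 1.39e-07), and ERBB2, a receptor kinase, rose from 46.9 ± 0.46 to 86.8 ± 1.53 CPM (edgeR adjusted p = 1.40e-07). Of 11 tested annexins 9 passed (81.8%), 3 higher and 6 lower, with a median of -0.19. ANXA1, ANXA2, ANXA5, ANXA6 and ANXA11 are in both lists, so the shares of the annexins and of the partners are not independent. Both lists were chosen with earlier results of these data known and were not matched in level to all tested genes. No excess over 47.5% is therefore read from their shares. ANXA6, which binds membranes, fell from 357 ± 6.94 to 241 ± 6.21 CPM (edgeR adjusted p = 1.14e-06). ANXA8 and ANXA8L1, near-identical copies between which reads could be split, were higher, at 64.9 ± 0.56 and 47.4 ± 4.998 CPM from 23.9 ± 1.15 and 22.7 ± 1.39, and their separate values are uncertain.

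Ratios of S100 genes to classical partners, chosen after the values were seen, moved unevenly. S100A10 to ANXA2 was 0.698 and 0.765 in TPM in the empty libraries against 0.620 and 0.665 with overexpression. S100A11 to ANXA1 was 1.25 and 1.34 against 1.99 and 2.16, S100A4 to the myosin heavy chain MYH9 was 5.71 and 5.07 against 0.567 and 0.688, and S100A6 to CACYBP was 11.7 and 10.8 against 2.67 and 3.48. The ratio of S100A10 to ANXA2 was the nearest to an overlap of the groups. With 2 libraries against 2 and pairs chosen afterwards, nothing is read from their separation.

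Of 52 tested EF-hand proteins outside the family 34 (65.4%) passed the threshold, 20 higher and 14 lower, with a median log2 fold change of 0.12. The split was 11 higher and 14 lower without empty 1, 13 and 14 without empty 2, and 14 and 14 at a threshold of 0.01, so no balance of directions is read from it. The 4 with the smallest p were all lower. CALB1, the calcium buffer calbindin, fell from 57.9 ± 7.09 to 2.83 ± 0.50 CPM (edgeR adjusted p = 9.86e-12), LCP1, the actin-bundling plastin, from 555 ± 16.7 to 181 ± 5.08 (edgeR adjusted p = 2.87e-11), HPCAL1, a neuronal calcium sensor type protein, from 350 ± 36.7 to 113 ± 3.43 (edgeR adjusted p = 2.62e-10), and CALB2, calretinin, from 12.5 ± 0.41 to 1.84 ± 0.01 (edgeR adjusted p = 1.40e-08). The log2 fold changes of CALB1 and CALB2 were -4.36 and -2.77, beside -2.57 to -2.85 for S100A3, S100A4 and S100A5. Of 21 tested genes of calcium entry and pumps 14 (66.7%) passed, 8 higher and 6 lower. STIM1 and STIM2, both called higher, are in this list and in that of the EF-hand proteins, so the shares are not independent. The count of calcium entry and pump genes was 8 at a threshold of 0.01, with 3 higher and 5 lower. In DESeq2 it was 9, with 4 higher and 5 lower. Over all tested genes the count also fell, from 7856 to 5853 at 0.01 and to 6121 in DESeq2. No balance of directions is read from this list either. The EF-hand list and this one were also chosen with earlier results known and not matched in level, so no excess is read from their shares. ATP2A3, a calcium pump of the endoplasmic reticulum, fell from 5.90 ± 0.58 to 0.82 ± 0.03 CPM (edgeR adjusted p = 4.34e-07), MCUB, an inhibitory subunit of the mitochondrial uniporter, rose from 5.84 ± 0.48 to 12.4 ± 0.46 (edgeR adjusted p = 2.48e-05), ATP2B4, a plasma membrane pump, rose from 136 ± 9.65 to 203 ± 23.5 (edgeR adjusted p = 6.72e-05), and ITPR2, a calcium release channel, fell from 35.5 ± 3.24 to 25.7 ± 2.11 (edgeR adjusted p = 0.00109).

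Protein-coding genes within 1 Mb of the stretch from S100A10 to S100A13 gave a comparison with the neighbourhood. Of 111, 39 had no count, 48 were tested and 27 (56.2%) passed, 22 higher and 5 lower (14 and 5 at a threshold of 0.01). The median log2 fold change of the tested neighbours was 0.24. Within 0.5 Mb 9 of 22 tested genes (40.9%) passed, and over all tested genes 47.5%. MLLT11 rose from 46.9 ± 0.76 to 107 ± 1.95 CPM (edgeR adjusted p = 5.59e-09), RFX5, a regulator of MHC class II genes, from 38.3 ± 1.22 to 66.5 ± 1.75 (edgeR adjusted p = 9.63e-07) and RAB13, a vesicle traffic GTPase, from 72.8 ± 0.89 to 109 ± 7.09 (edgeR adjusted p = 8.07e-06). IL6R, the interleukin-6 receptor, fell from 14.6 ± 0.70 to 3.72 ± 0.25 (edgeR adjusted p = 9.61e-08). The 5 genes within 0.1 Mb of S100A6 to S100A13, a window set after the values were seen, all lie on the side of S100A13. CHTOP and SNAPIN did not pass (log2 fold changes 0.09 and 0.17), ILF2 and INTS3 rose by 0.29 and 0.30 on the log2 scale (edgeR adjusted p = 0.00105 and 0.00353), and NPR1, a natriuretic peptide receptor, fell from 1.62 ± 0.40 to 0.10 ± 0.02 CPM (edgeR adjusted p = 3.70e-05). Of the 5, NPR1, at a low level, had the one difference of a size like those of S100A3 to S100A5.

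**Figure D5:**
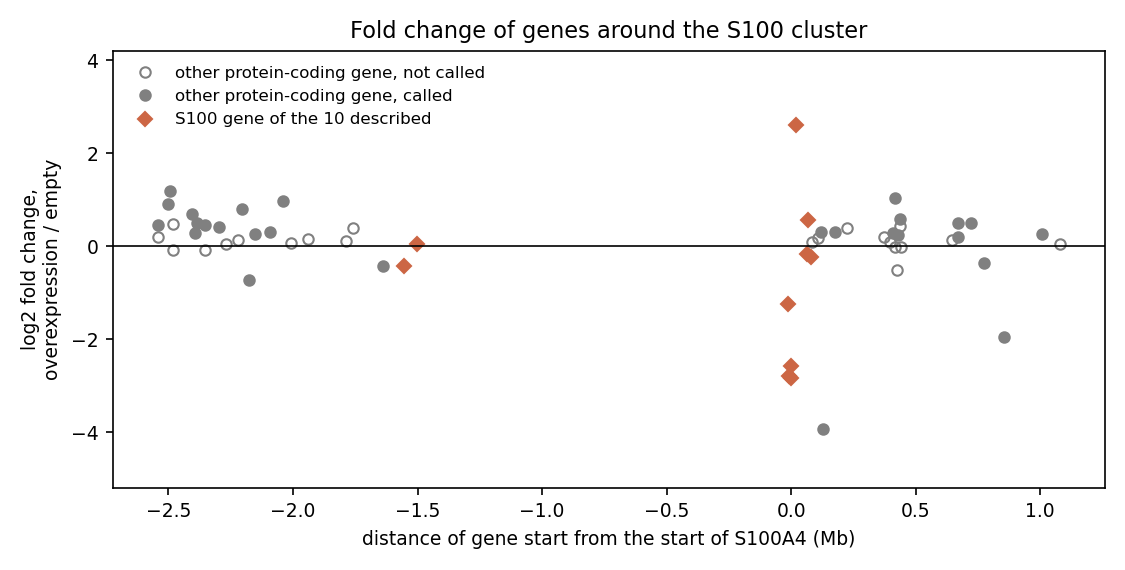
Log2 fold change (overexpression over empty) of tested protein-coding genes within 1 Mb of the stretch from S100A10 to S100A13, by distance from the start of S100A4 in Mb, with called and other neighbours in grey and the 10 S100 genes as diamonds. The neighbours have a median of 0.24, and S100A3, S100A4 and S100A5 lie below all of them but NPR1.

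The genes whose profile of log2(TPM + 1) over the 4 libraries lay nearest to that of S100A4, each centred on its own mean, were NEFL at a Euclidean distance of 0.119, LAPTM5 at 0.125 and AREG at 0.147. This likeness is on the log2(TPM + 1) scale, which compresses low levels: the fitted log2 fold changes were -4.33 for NEFL, -5.58 for LAPTM5 and -3.05 for AREG, beside -2.85 for S100A4. In the table's own annotation terms, all 10 genes carry the S100 domain, 4 carry zinc ion binding (S100A3, S100A5, S100A6 and S100A13, against 3.32% of tested genes), and 2 carry binding to the RAGE receptor (S100A4 and S100A13). The gene of that receptor, AGER, named after its value was seen, did not pass the threshold (log2 fold change 0.29, edgeR adjusted p = 0.132).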

How the data were processed

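Per the labels' protocols, Trizol RNA (1 µg in total) went into standard Illumina libraries. The authors deposited 1 table with estimated counts per gene (not normalized; 61.9% to 65.0% of values above 0 per library were exact whole numbers as deposited), TPM, a gene length, a log2 fold change and an adjusted p-value, per the file headers; the name of their workbook says DESeq2 for the last 2. Bowtie 0.12.2 and the mouse build mm9 stand in the submitters' processing notes, but the gene IDs are human, so aligner, counter, strand setting and annotation are not given in the sources used.

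Columns were matched to samples by title. Rounded to whole numbers, the estimated counts were fitted in R 4.3.3 with edgeR 4.0.16 (TMM, filterByExpr at a minimum count of 10, quasi-likelihood test, Benjamini-Hochberg adjustment over all tested genes). Depth is given with the results; the common biological coefficient of variation was 0.0592. Ratios of counts carry exact binomial 95% intervals where stated, which cover counting error only. Positions came from GENCODE release 29 by gene ID (58396 matched), which need not be the authors' annotation, and promoter windows from RefSeq. Alternatives were DESeq2 1.42.0, limma 3.58.1 (voom), other scalings and filters, and each library left out. Scripts were tested on simulated data. The members and gene lists were chosen with earlier results of these data known. Named genes were TFCP2L1, the members, other S100 genes with a count, up to 4 called genes per list by smallest p, and the 3 genes nearest to S100A4 in profile; any other is named as chosen afterwards.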

Additional observations from a re-analysis of the deposited data

How the results depend on the processing

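S100A2, S100A3, S100A4, S100A5, S100A6 and S100A10 kept their direction and call in every alternative fit (other scaling, no filter or a CPM filter, DESeq2, limma-voom, a threshold of 0.01, each library left out); the losses for S100A13 and S100A16 are given with the calls. S100A11 changed sign: its log2 fold change was -0.0038 with log2(TPM + 1) and with log2(TPM + 0.1), ranged from -0.0117 to 0.0967 with single libraries left out (-0.0088 without empty 1), and was above 0 in the other fits. The summed level's log2 ratio was -0.63 in TPM, -0.31 in CPM and -0.68 to -0.57 with single libraries left out. The count of called calcium entry and pump genes was 14, and 9 with DESeq2, 8 at a threshold of 0.01 and 8 to 13 with single libraries left out. The count of called neighbours was 27 of 48 tested (56.2%) within 1 Mb. In windows of other size it was 9 of 22 (40.9%) within 0.5 Mb and 56 of 99 (56.6%) within 2 Mb. Over all tested genes 47.5% were called, so the share within 0.5 Mb lay below that of all genes. The causes were not tested. No paired analysis was possible because the labels give the groups no shared replicate numbers. Depth limits S100A14, S100A5 and the S100 genes outside the 10.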
